A study of Homo sapiens with 4 samples.

Results

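The 10 genes described here encode the cadherins CDH1, CDH2, CDH3, CDH11 and CDH13, the catenins CTNNA1, CTNNB1, CTNND1 and JUP, and the desmosomal plaque protein PKP2. They were taken by name from a table of 36525 Ensembl genes, and all 10 were found. Those below 1 RPKM (reads per kilobase of transcript, scaled to a read total) were included. The libraries of a group had the same scaling although their depths differed, as described below. The table compares LM2 cells after hnRNPM knockdown (2 libraries) with control LM2 cells (2 libraries). LM2 is a clonal lung metastatic derivative of MDA-MB-231, a human breast cancer line of mesenchymal character, and hnRNPM is a splicing regulator that binds RNA. Both groups were grown in the same medium and collected 48 h after plating. The labels describe the silencing agent both as an shRNA expressed by the cells and as an siRNA, and describe no agent for the controls, so "knockdown" and "control" are used. No label states that the 2 libraries of a group are from separate cultures, so the p-values cover only the variation among these 4 libraries, some or all of which may be technical.

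Classical cadherins are calcium-dependent adhesion receptors that bind the same cadherin on a neighbouring cell. Inside the cell their tails bind β-catenin or plakoglobin, which recruit α-catenin and through it actin, while p120-catenin binds nearer the membrane and keeps the cadherin at the cell surface. In an epithelial-mesenchymal transition, carcinoma cells often lose E-cadherin and gain N-cadherin, a change known as the cadherin switch. MDA-MB-231 cells are known for having little E-cadherin.

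HNRNPM itself was at 11.5 and 12.95 RPKM in the knockdown libraries, against 88.6 and 102 RPKM in the control libraries, which is 7.80-fold lower. Estimated reads per library were 16.5 and 18.3 M in the knockdown and 23.0 and 26.6 M in the control group. The label of a mesenchymal line was checked against 6 mesenchymal and 8 epithelial markers. The mesenchymal markers summed to 865 and 964 RPKM in the knockdown libraries and 845 and 985 RPKM in the control libraries. VIM (vimentin) was the most abundant. Both knockdown libraries lay above both control libraries for SPARC and FN1, and below them for VIM, CD44, ZEB1 and SNAI2. SPARC was at 183 and 201 RPKM in knockdown and 70.1 and 80.3 RPKM in control. SNAI2 was at 5.984 and 7.004 RPKM in knockdown and 11.2 and 13.4 RPKM in control. ZEB1 was at 4.11 and 4.63 RPKM in knockdown and 5.33 and 6.199 RPKM in control. The part of these markers in the results below was not tested. The epithelial markers were far lower in both groups, as given beside CDH1, and 0 of the 8 were at 0 in every library. Of 13627 genes tested at a mean of at least 1 RPKM, 14.7% were higher and 21.8% lower in knockdown, 36.4% in all (limma with Benjamini-Hochberg adjustment, threshold 0.05). In the same fit after median-ratio scaling of the libraries, 31.1% were higher and 30.0% lower.

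Promoter sequences were available from RefSeq (GRCh38.p14) for 4 of the 10 genes: CDH2, JUP, CTNNB1 and CTNNA1. CDH1, CDH3, CDH11, CDH13, CTNND1 and PKP2 matched no entry. Those of CDH2 and JUP, whose transcripts were more abundant after knockdown, are shown beside that of CTNNB1, the close relative of JUP, each from 250 bases before a transcription start to 50 bases after it. All are written 5′ to 3′ on the gene's strand, and capitals mark the E-box CACCTG on either strand (CAGGTG when read on the other), the site class to which the repressors of the SNAI and ZEB families bind.
CDH2, start 1, chr18:28177081-28177380, minus strand: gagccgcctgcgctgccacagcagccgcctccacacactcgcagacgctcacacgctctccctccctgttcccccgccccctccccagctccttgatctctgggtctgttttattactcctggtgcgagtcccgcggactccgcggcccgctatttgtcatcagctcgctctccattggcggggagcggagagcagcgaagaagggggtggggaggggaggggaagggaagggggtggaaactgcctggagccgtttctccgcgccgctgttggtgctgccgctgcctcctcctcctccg
CDH2, start 2, chr18:28036592-28036891, minus strand: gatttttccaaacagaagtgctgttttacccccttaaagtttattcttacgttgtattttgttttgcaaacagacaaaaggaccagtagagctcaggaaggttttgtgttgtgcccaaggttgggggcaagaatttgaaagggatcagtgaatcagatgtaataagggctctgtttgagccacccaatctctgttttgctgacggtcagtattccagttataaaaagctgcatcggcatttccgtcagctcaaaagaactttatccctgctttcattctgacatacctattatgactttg
JUP, start 1, chr17:41786662-41786961, minus strand: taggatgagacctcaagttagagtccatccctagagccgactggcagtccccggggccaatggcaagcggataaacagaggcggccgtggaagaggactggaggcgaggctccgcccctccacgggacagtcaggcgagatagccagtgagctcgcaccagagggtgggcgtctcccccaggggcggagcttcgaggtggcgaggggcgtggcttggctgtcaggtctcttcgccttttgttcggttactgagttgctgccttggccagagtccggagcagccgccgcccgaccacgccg
JUP, start 2, chr17:41785927-41786226, minus strand: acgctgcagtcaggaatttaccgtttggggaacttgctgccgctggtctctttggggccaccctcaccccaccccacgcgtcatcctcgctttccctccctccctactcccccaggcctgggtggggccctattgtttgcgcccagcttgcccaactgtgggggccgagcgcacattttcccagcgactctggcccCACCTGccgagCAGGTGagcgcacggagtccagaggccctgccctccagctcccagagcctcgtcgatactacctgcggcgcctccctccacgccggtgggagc
CTNNB1, start 1, chr3:41199255-41199554, plus strand: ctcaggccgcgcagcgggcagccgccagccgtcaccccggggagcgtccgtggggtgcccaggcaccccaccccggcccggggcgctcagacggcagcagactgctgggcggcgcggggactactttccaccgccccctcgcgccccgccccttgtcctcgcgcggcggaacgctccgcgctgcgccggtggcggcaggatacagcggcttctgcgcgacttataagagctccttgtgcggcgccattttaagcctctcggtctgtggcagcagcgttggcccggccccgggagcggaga
The E-box was present in 1 of these 5 windows, that of the downstream start of JUP, which held 2 copies, with first bases 54 and 43 bases before the start. The same search over 35116 promoter windows of this length found at least 1 copy in 20.6% and at least 2 in 3.49%. The GC box GGGCGG, searched on both strands, occurred 3 times in the window of the upstream start of JUP, 3 times at CTNNB1 and 1 time at the upstream start of CDH2. It was present in 45.0% of all windows. The core CTTTGAT of sites for TCF/LEF factors, the DNA-binding partners of β-catenin, was in 0 of the 5 windows and in 2.62% of all windows. The 4 CTNNA1 windows, not printed because CTNNA1 did not pass the test and CTNNB1 serves as the comparison, held 0 E-boxes. Starts 1 and 2 of CTNNA1 held 9 and 4 GC boxes and 0 TCF/LEF cores, and starts 3 and 4 held 0 GC boxes and 1 TCF/LEF core each. The upstream CDH2 window had a GC content of 67.0% with 23 CpG, and the downstream one 40.7% with 4 CpG, against medians of 58.7% and 14 over all windows. RPKM values per gene do not tell the starts of a gene apart, and a match to these letters is a description of the sequence only.

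Of the 10 genes, 5 were higher after knockdown: JUP, PKP2 and CDH3, tested among the genes at a mean of at least 1 RPKM, and CDH1 and CDH2, tested among the 21044 genes at a mean of at least 0.1 RPKM. CTNNA1, CTNNB1, CTNND1 and CDH11 did not pass, and CDH13, below 0.1 RPKM, was not tested. Among all genes, 14.7% were called higher in the first of these fits and 6.66% in the second, where 10.0% were called lower and 16.7% in either direction. All 5, and CDH11, had both knockdown libraries above both control libraries, as did 28.0% of all genes at a mean of at least 1 RPKM. CDH1, CDH2 and CDH11 lie below that mean, and the share among genes at a mean of at least 0.1 RPKM was not computed. CDH3 cleared the first filter, and CDH1 and CDH2 the second, only through the knockdown libraries, so the number that passed describes these genes and tests nothing about the family. The plot of the 10 genes by library gives all values.

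**Figure D1:**
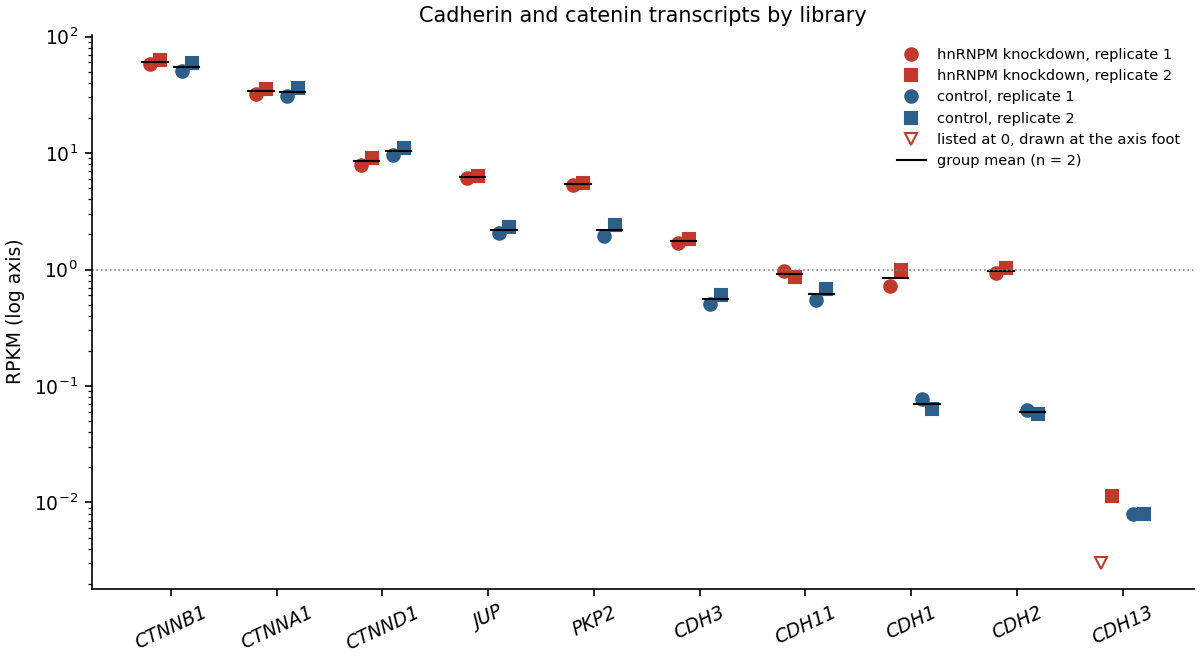
RPKM of each gene in each library on a log axis (red, hnRNPM knockdown; blue, control; circles, replicate 1; squares, replicate 2; black lines, means of 2 libraries, not drawn for CDH13, whose value of 0 in 1 knockdown library is drawn as an open triangle at the axis foot). CTNNB1, CTNNA1 and CTNND1 stand above the dotted line at 1 RPKM with the groups close together, whereas CDH1 and CDH2 lie near 1 RPKM in the knockdown libraries and below 0.1 RPKM in the control libraries.

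CDH1, which encodes E-cadherin of epithelial adherens junctions, was at 0.717 and 0.990 RPKM in the knockdown libraries, against 0.0774 and 0.0629 RPKM in the control libraries. These values rest on 105 and 145 reads in the knockdown libraries and on 16 and 13 reads in the control libraries, recovered from the steps of the RPKM values. The groups did not overlap, and neither did the exact 95% Poisson intervals of the libraries, from 0.587 to 1.17 RPKM over the knockdown and from 0.0335 to 0.126 RPKM over the control libraries. Such intervals cover counting error only. The ratio of group means was 12.2, and the difference in log2(RPKM + 0.5) was 1.24 ± 0.14 (SE; limma, adjusted p = 0.0177). The pseudocount of 0.5 lies above the control values and compresses the change, which was 2.47 at a pseudocount of 0.1 and 0.79 at 1. The 8 epithelial markers summed to 25.7 and 28.5 RPKM in the same knockdown libraries and to 18.3 and 20.7 RPKM in the control libraries, while ESRP1, an epithelial splicing factor among them, was listed at 0 in both knockdown libraries and at 0.0147 and 0.049 RPKM in the control libraries. KRT8 and KRT18 carried most of the higher sum, and the groups overlapped for EPCAM, KRT19 and OCLN. KRT8 was at 7.496 and 8.01 RPKM in knockdown and 3.86 and 4.55 RPKM in control, and KRT18 at 10.5 and 11.8 RPKM in knockdown and 5.49 and 6.54 RPKM in control. CLDN7 lay the other way, at 1.96 and 2.16 RPKM in knockdown and 3.33 and 3.70 RPKM in control. The part of these markers in the CDH1 result was not tested. In bulk RNA a higher level in every cell and a larger share of cells with the transcript cannot be told apart.

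CDH2, which encodes N-cadherin, the cadherin of neural and mesenchymal cells, was at 0.926 and 1.04 RPKM in the knockdown libraries, against 0.0627 and 0.0579 RPKM in the control libraries. The reads behind these values numbered 136 and 152 in the knockdown and 13 and 12 in the control libraries. Both knockdown libraries were high and both control libraries low, a ratio of means of 16.3. On the log2 scale it was higher by 1.40 ± 0.11 (SE; limma, adjusted p = 0.0139), with 2.75 at a pseudocount of 0.1 and 0.90 at 1. An unnamed gene on the opposite strand, ENSG00000227279, shares 136 of the 4950 exon positions of CDH2 in GENCODE 29. It was at 0.843 and 1.07 RPKM in the knockdown libraries and 0.163 and 0.271 RPKM in the control libraries, and as no source used here says whether strand was used in counting, reads at those positions cannot be told apart. E-cadherin and N-cadherin transcripts were thus both higher after knockdown, from nearly equal control means of 0.0701 ± 0.0103 RPKM for CDH1 and 0.0603 ± 0.0034 RPKM for CDH2 (SD, n = 2).

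The calls for CDH1 and CDH2 were lost whichever library was left out. In each of the 4 limma fits that left out 1 library, the adjusted p was between 0.151 and 0.173 for CDH1 and between 0.146 and 0.167 for CDH2. In those fits 0 of the 21044 genes passed, HNRNPM included, although between 4679 and 5764 genes had an unadjusted p under 0.05. JUP, PKP2 and CDH3, which are also in that fit, passed it with all 4 libraries (adjusted p = 0.0153, 0.0199 and 0.0178) and likewise did not pass without any 1 of them. The calls described below as kept hold in the fit at a mean of at least 1 RPKM, so no difference in stability between CDH1 or CDH2 and these genes is shown. The direction was the same throughout for CDH1 and CDH2, with log2 fold changes from 1.09 to 1.39 for CDH1 and from 1.35 to 1.45 for CDH2.

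CDH3, which encodes P-cadherin of basal epithelial cells, was at 1.69 and 1.83 RPKM in the knockdown libraries, against 0.509 and 0.602 RPKM in the control libraries. The reads were 219 and 237 in the knockdown and 93 and 110 in the control libraries, and the groups stood well apart. P-cadherin transcripts were 3.17-fold higher by group means, with a log2 fold change of 1.10 ± 0.20 (SE; limma, adjusted p = 8.3e-07). In the fit at a mean of at least 1 RPKM, leaving out any single library kept the call (adjusted p up to 0.0118), which was lost in the fit at 0.1 RPKM.

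CDH11, which encodes OB-cadherin of mesenchymal cells and osteoblasts, was at 0.967 and 0.871 RPKM in the knockdown libraries, against 0.549 and 0.681 RPKM in the control libraries. It had 202 and 182 reads in the knockdown and 162 and 201 reads in the control libraries. The groups did not overlap, but the Poisson interval of knockdown replicate 2, from 0.749 to 1.01 RPKM, overlapped that of control replicate 2, from 0.590 to 0.782 RPKM. The log2 fold change of 0.35 ± 0.13 did not pass (SE; limma, adjusted p = 0.131). After median-ratio scaling it was 0.40 ± 0.10 and passed (adjusted p = 0.0466). That scaled fit at a mean of at least 0.1 RPKM called 22.6% of all genes higher and 22.8% lower, 45.4% in all.

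CDH13 encodes T-cadherin, which is held in the membrane by a lipid anchor and lacks the tail that binds catenins. It was listed at 0 and 0.0114 RPKM in the knockdown libraries and at 0.00804 RPKM in both control libraries. The smallest whole numbers that fit these values are 0 and 1 read in the knockdown libraries and 1 read in each control library. A count of 0 allows up to 3 reads, or 0.0341 RPKM in a knockdown library, by the one-sided rule for a count of 0, and up to 0.0419 RPKM by the 2-sided Poisson interval used for the other genes, so no difference was detectable at this depth.

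**Figure D2:**
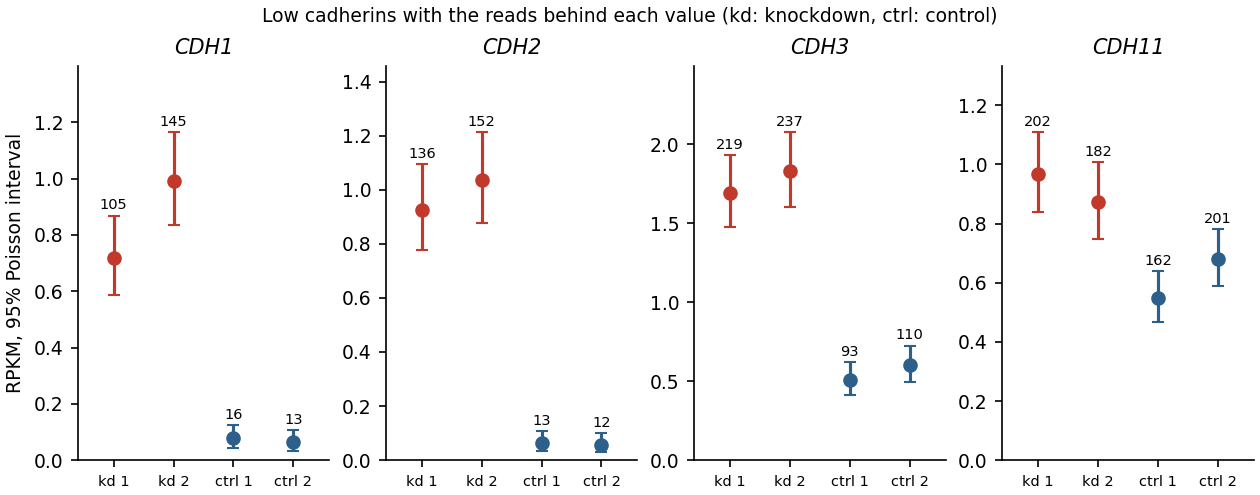
RPKM of CDH1, CDH2, CDH3 and CDH11 in each library (kd, hnRNPM knockdown; ctrl, control), with exact 95% Poisson intervals as bars and the number of reads above each. The intervals of the knockdown and control libraries are far apart for CDH1 and CDH2, apart for CDH3, and partly overlapping for CDH11.

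Because RPKM is a value per transcript length, the levels of different genes can be set side by side. The 5 cadherins summed to 4.30 and 4.74 RPKM in the knockdown libraries and to 1.21 and 1.41 RPKM in the control libraries. CDH1 made up 18.8% ± 2.99 of that sum in knockdown and 5.44% ± 1.39 in control, and CDH2 made up 21.7% ± 0.22 in knockdown and 4.65% ± 0.78 in control (SD, n = 2 each). The share of CDH11 was 20.4% ± 2.89 in knockdown and 46.9% ± 1.93 in control. CDH3 held close to the same share, 39.0% ± 0.49 in knockdown and 42.4% ± 0.31 in control. Among these 5 genes, then, the control transcripts were mainly those of CDH11 and CDH3. After knockdown CDH3 was the most abundant of the 5, and CDH2, CDH11 and CDH1 stood at similar levels. This order holds only within the 5, since other cadherins lay outside the sum. CDH24, a type II cadherin, exceeded the whole sum in each control library (1.55 and 1.64 RPKM). Its knockdown values (0.747 and 0.684 RPKM) were less than those of CDH3. In the knockdown libraries the values of CDH2, CDH11 and CDH1 overlapped, as did those of CDH11 and CDH3 in the control libraries. CDH1 was slightly above CDH2 in both control libraries, by less than their Poisson intervals. These shares are descriptions, with no test.

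**Figure D3:**
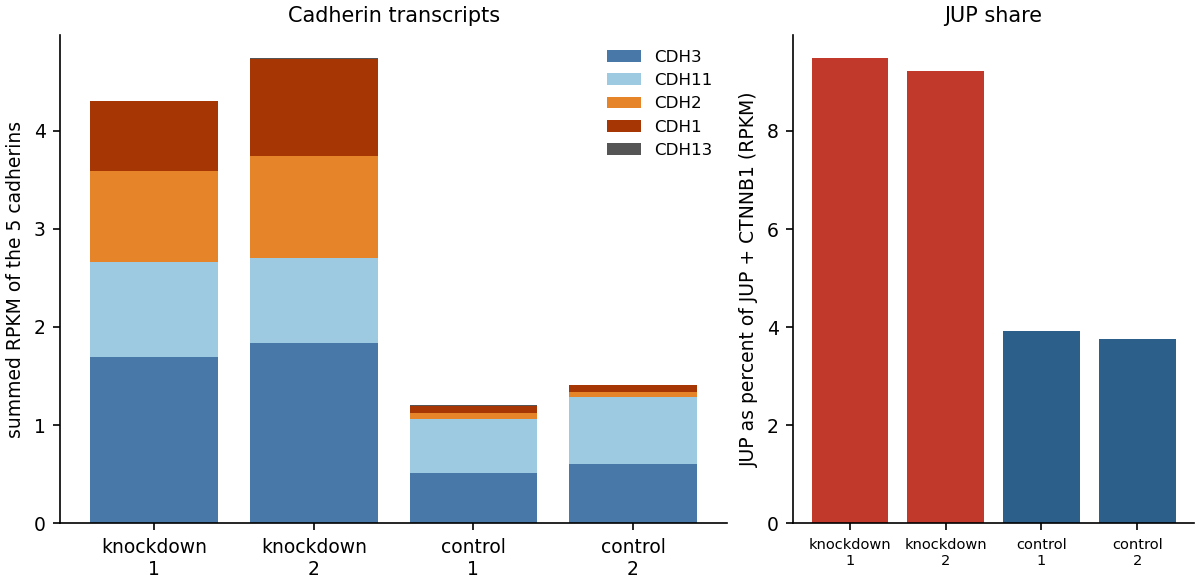
Left, summed RPKM of the 5 cadherins in each library, stacked by gene, and right, JUP as a percent of JUP plus CTNNB1 RPKM. The stacks reach 4.30 and 4.74 RPKM in the knockdown libraries and 1.21 and 1.41 RPKM in the control libraries, and the JUP share is 9.49% and 9.23% in knockdown and 3.91% and 3.76% in control.

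JUP encodes plakoglobin, an armadillo protein that binds cadherin tails in adherens junctions and also links desmosomal cadherins to the plaque. Plakoglobin transcripts were at 6.07 and 6.41 RPKM in the knockdown libraries (966 and 1020 reads), against 2.07 and 2.30 RPKM in the control libraries (465 and 517 reads). Both knockdown libraries lay far above both control libraries, 2.86-fold by group means. On the log2 scale JUP was higher by 1.33 ± 0.18 (SE; limma, adjusted p = 2.01e-12). That SE is the pooled one, and the limma fit at 0.1 RPKM, which also draws on the gene's own values, gave an adjusted p of 0.0153. In the fit at a mean of at least 1 RPKM the call held whichever library was left out (adjusted p up to 0.00648), and in the fit at 0.1 RPKM it was lost. The 2 E-boxes printed above lie in the downstream promoter window of JUP. These values do not show which start of JUP was used, and the part of the E-boxes in this result was not tested.

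PKP2 encodes plakophilin 2, which joins plakoglobin and desmoplakin in the desmosomal plaque. Its level was 5.30 and 5.58 RPKM in the knockdown libraries (954 and 1004 reads), against 1.93 and 2.43 RPKM in the control libraries (491 and 619 reads). It was 2.49-fold higher by group means, with no overlap of the groups and a log2 fold change of 1.15 ± 0.18 (SE; limma, adjusted p = 1.84e-09). Leaving out any 1 library kept the call at a mean of at least 1 RPKM (adjusted p up to 0.0108) and ended it at 0.1 RPKM. PKP2 averaged 5.44 ± 0.20 RPKM in knockdown and 2.18 ± 0.36 RPKM in control, and JUP averaged 6.24 ± 0.24 RPKM in knockdown and 2.18 ± 0.16 RPKM in control (SD, n = 2 each).

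CTNNB1, CTNNA1 and CTNND1, the catenins of the adherens junction core, did not pass the test. CTNNB1, which encodes β-catenin, both a cadherin partner and the transcriptional effector of Wnt signalling, was at 57.9 and 63.0 RPKM in the knockdown libraries, against 50.8 and 58.8 RPKM in the control libraries. The groups overlapped, and the log2 fold change of 0.14 ± 0.17 did not pass (SE; limma, adjusted p = 0.546). CTNNA1, which encodes α-catenin, the link to actin, was at 32.2 and 35.5 RPKM in the knockdown libraries, against 31.1 and 36.4 RPKM in the control libraries. Again the groups overlapped, with a log2 fold change of 0.01 ± 0.17 (adjusted p = 0.976). LRRTM2 and CTNNA1-AS1, on the opposite strand, share 445 and 75 exon positions with it.

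CTNND1, which encodes p120-catenin, was at 7.85 and 9.08 RPKM in the knockdown libraries, against 9.65 and 11.1 RPKM in the control libraries. Both knockdown libraries lay below both control libraries, as they did for 38.8% of all genes at a mean of at least 1 RPKM, but the log2 fold change of −0.28 ± 0.18 did not pass (SE; limma, adjusted p = 0.205). Its level is uncertain, since it shares 321 exon positions on the same strand with the readthrough gene TMX2-CTNND1 in GENCODE 29. That gene was at 26.6 and 28.0 RPKM in the knockdown libraries and 29.7 and 33.7 RPKM in the control libraries, and no source used here says how reads common to both were assigned. An unnamed gene, ENSG00000254732, shares 289 exon positions with CTNND1 on that strand, and whether these are among the 321 was not checked. The unnamed gene was at 34.5 and 39.3 RPKM in the knockdown libraries and 41.6 and 51.1 RPKM in the control libraries.

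Between libraries of a group many genes differed together, and the median SE over all genes tested was 0.18 as deposited and 0.05 after median-ratio scaling. From the steps between low RPKM values, 1 read had an equal worth in the libraries of a group, and that worth was 1.41 times higher in knockdown. Libraries of unequal depth thus had the same scaling within a group. Median-ratio size factors were 0.929 and 1.03 for the knockdown and 0.964 and 1.11 for the control libraries. After this scaling CTNNB1 was at 62.3 and 61.4 RPKM in the knockdown libraries, against 52.6 and 53.0 RPKM in the control libraries, and the groups no longer overlapped. Its log2 fold change was then 0.23 ± 0.02 (limma, adjusted p = 0.00152), that of CTNNA1 0.09 ± 0.02 (adjusted p = 0.0195) and that of CTNND1 −0.20 ± 0.03 (adjusted p = 0.0119). The scaled fit called 61.0% of all genes in either direction, and these 3 small differences are read against that share. JUP, PKP2, CDH3, CDH1 and CDH2 passed under both scalings.

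**Figure D4:**
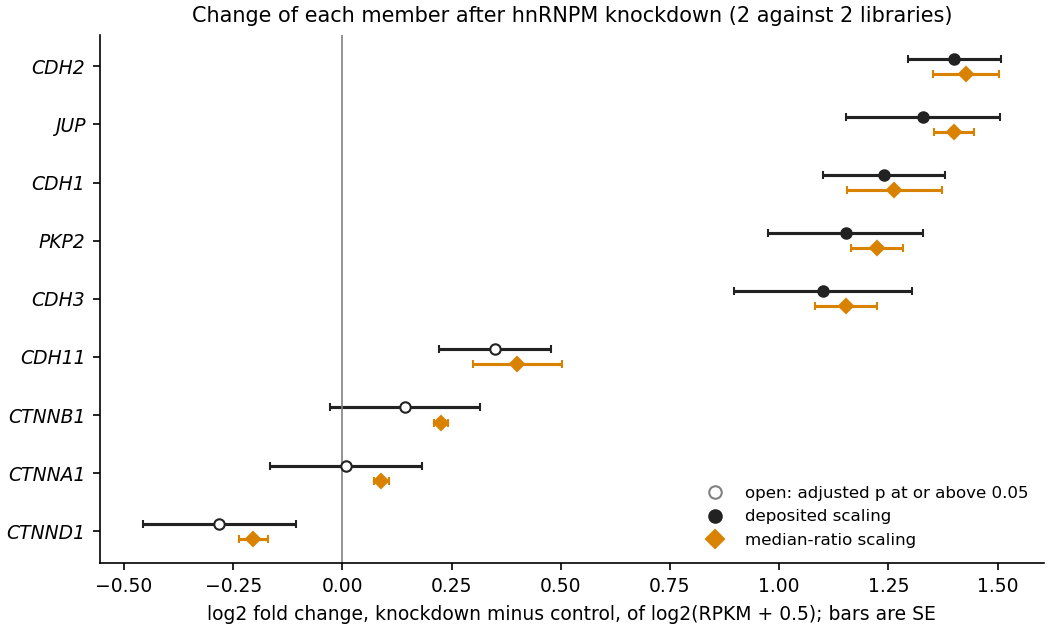
Log2 fold change (knockdown minus control) of log2(RPKM + 0.5) for the 9 genes tested, with SE bars, as deposited (black circles) and after median-ratio scaling (orange diamonds); open symbols did not pass. CDH2, JUP, CDH1, PKP2 and CDH3 lie between 1.10 and 1.43 under both scalings, and CDH11, CTNNB1, CTNNA1 and CTNND1 between −0.28 and 0.40.

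The share of JUP in the RPKM of the 2 paralogs was 9.49% and 9.23% in the knockdown libraries, against 3.91% and 3.76% in the control libraries. CTNNB1 transcripts were 13.5 and 13.3 times as abundant as the 5 cadherins together in the knockdown libraries, and 42.1 and 41.7 times in the control libraries. The order of levels among the catenins and PKP2 was CTNNB1, CTNNA1, CTNND1, JUP and PKP2 in the knockdown libraries. In the control libraries JUP and PKP2 did not differ beyond their spread.

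The genes whose values over the 4 libraries were most like those of CDH1, by Euclidean distance of centred log2(RPKM + 0.5) among 16576 named genes, were GLRB, FOLR1 and H2BC12 (distances of 0.07, 0.07 and 0.08). The nearest to JUP among 11421 named genes were CLU, TUFT1 and OASL (distances of 0.02, 0.04 and 0.05). With 2 libraries a group, such likeness amounts to a similar fold change.

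Related junction genes were taken from 6 lists and tested in the fit at a mean of at least 1 RPKM, where 14.7% of all genes were called higher and 21.8% lower. Calls kept or lost without a library refer to that fit, since the fit at 0.1 RPKM called 0 genes whenever a library was left out. Among the other classical and type II cadherins, 13 of 18 listed genes were in the table and 1 was abundant enough to test. This was CDH24, a type II cadherin, which fell to 0.747 and 0.684 RPKM in the knockdown libraries, against 1.55 and 1.64 RPKM in the control libraries (log2 fold change −0.79; limma, adjusted p = 0.000605). It cleared the filter only through the control libraries, so this call describes the gene and supports nothing further. Of 6 tested atypical cadherins and protocadherins, 3 rose, 0 fell and 3 did not pass, beside 14.7% higher and 21.8% lower over all genes. Their median log2 fold change was 0.35, against −0.07 over all genes tested. In the fit at 0.1 RPKM 15 were tested, with 4 higher and 0 lower, beside 6.66% and 10.0% of all genes. The median of those 15 was smaller, at 0.14, against −0.06 over all genes in that fit. FAT1, a giant cadherin with growth-restraining roles, rose to 46.1 and 51.2 RPKM in the knockdown libraries, against 28.5 and 33.4 RPKM in the control libraries. FAT4, a partner of the Dachsous cadherins, rose 1.96-fold and CELSR2, a planar polarity cadherin, 1.85-fold. The call of FAT4 held whichever library was left out. That of CELSR2 was lost without control replicate 1 (adjusted p = 0.0503), and that of FAT1 without knockdown replicate 1, knockdown replicate 2 or control replicate 1 (adjusted p = 0.113, 0.234 and 0.106).

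Of 6 desmosome genes tested, PPL and DSC2 rose, EVPL fell and 3 did not pass, beside 14.7% higher and 21.8% lower over all genes. In the fit at 0.1 RPKM 1 of them was higher and 0 lower, and after median-ratio scaling 3 were higher and 3 lower, beside 31.1% and 30.0% of all genes. Their median log2 fold change was 0.05. PPL, which encodes the plakin periplakin, rose to 7.19 and 8.37 RPKM in the knockdown libraries, against 1.72 and 2.09 RPKM in the control libraries, a log2 fold change of 1.78 ± 0.18 (SE; limma, adjusted p = 5.77e-22). In the limma fit at 0.1 RPKM its adjusted p was 0.015. DSC2, which encodes the desmosomal cadherin desmocollin 2, rose 1.73-fold to a mean of 2.39 RPKM. EVPL, which encodes envoplakin, the partner of periplakin in the cornified envelope, fell to 2.17 and 2.83 RPKM in the knockdown libraries, against 3.93 and 4.52 RPKM in the control libraries. DSP, which encodes the desmoplakin that binds PKP2 and JUP, was at 11.8 and 13.2 RPKM in the knockdown libraries and 9.58 and 11.2 RPKM in the control libraries and did not pass (adjusted p = 0.243), nor did DSG2 and PERP. PPL kept its call whichever library was left out. DSC2 lost it without knockdown replicate 2, control replicate 1 or control replicate 2 (adjusted p = 0.153, 0.0704 and 0.0504), and EVPL without knockdown replicate 1 or control replicate 2 (adjusted p = 0.232 and 0.0941).

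Of 4 tested armadillo relatives and other catenins, 2 rose, 0 fell and 2 did not pass, beside 14.7% higher and 21.8% lower over all genes (median log2 fold change 0.13). In the fit at 0.1 RPKM 0 of the 4 passed. The 2 that rose were CTNNAL1, an α-catenin relative, at 86.1 and 95.9 RPKM in the knockdown libraries against 57.9 and 69.1 RPKM in the control libraries, and the plakophilin gene PKP3, which rose 1.41-fold. Both lost their calls whichever library was left out (adjusted p from 0.0739 to 0.398 for CTNNAL1 and from 0.105 to 0.53 for PKP3). Of 13 tested nectins and actin linkers, 4 rose, 4 fell and 5 did not pass, beside 14.7% and 21.8% of all genes (median log2 fold change −0.11). The adhesion receptor gene NECTIN3 (1.71-fold) and LIMA1 (1.79-fold), which encodes an actin-binding protein, rose, whereas NECTIN1 fell to 1.00 and 1.07 RPKM in the knockdown libraries, against 2.33 and 2.55 RPKM in the control libraries, and SSX2IP, an afadin-binding protein gene, fell by 0.91 on the log2 scale. NECTIN1 and SSX2IP kept their calls whichever library was left out. LIMA1 lost its call without knockdown replicate 2 (adjusted p = 0.078), and NECTIN3 without knockdown replicate 2 or control replicate 1 (adjusted p = 0.0998 and 0.0636). An opposite-strand gene listed at 0 in every library shares 148 exon positions with NECTIN1.

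Of 17 genes of β-catenin turnover and cadherin trafficking, 5 rose, 2 fell and 10 did not pass (median log2 fold change 0.19), a share near the 36.4% of all genes called. In the fit at 0.1 RPKM 1 was higher and 1 lower. After median-ratio scaling 10 were higher and 2 lower, beside 31.1% and 30.0% of all genes. RAB11A, which recycles E-cadherin to the surface, rose 1.53-fold, FBXW11, a ubiquitin ligase subunit for β-catenin, 1.55-fold and ADAM10, a sheddase of cadherins, 1.51-fold, and ARF6, which promotes cadherin internalisation, fell by 0.69 on the log2 scale. RAB11A, FBXW11 and ADAM10 lost their calls whichever library was left out (adjusted p from 0.054 to 0.298), and ARF6 in all such fits but the one without control replicate 1 (adjusted p from 0.036 to 0.229). ADAM10 shares 136 exon positions with an opposite-strand gene.

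**Figure D5:**
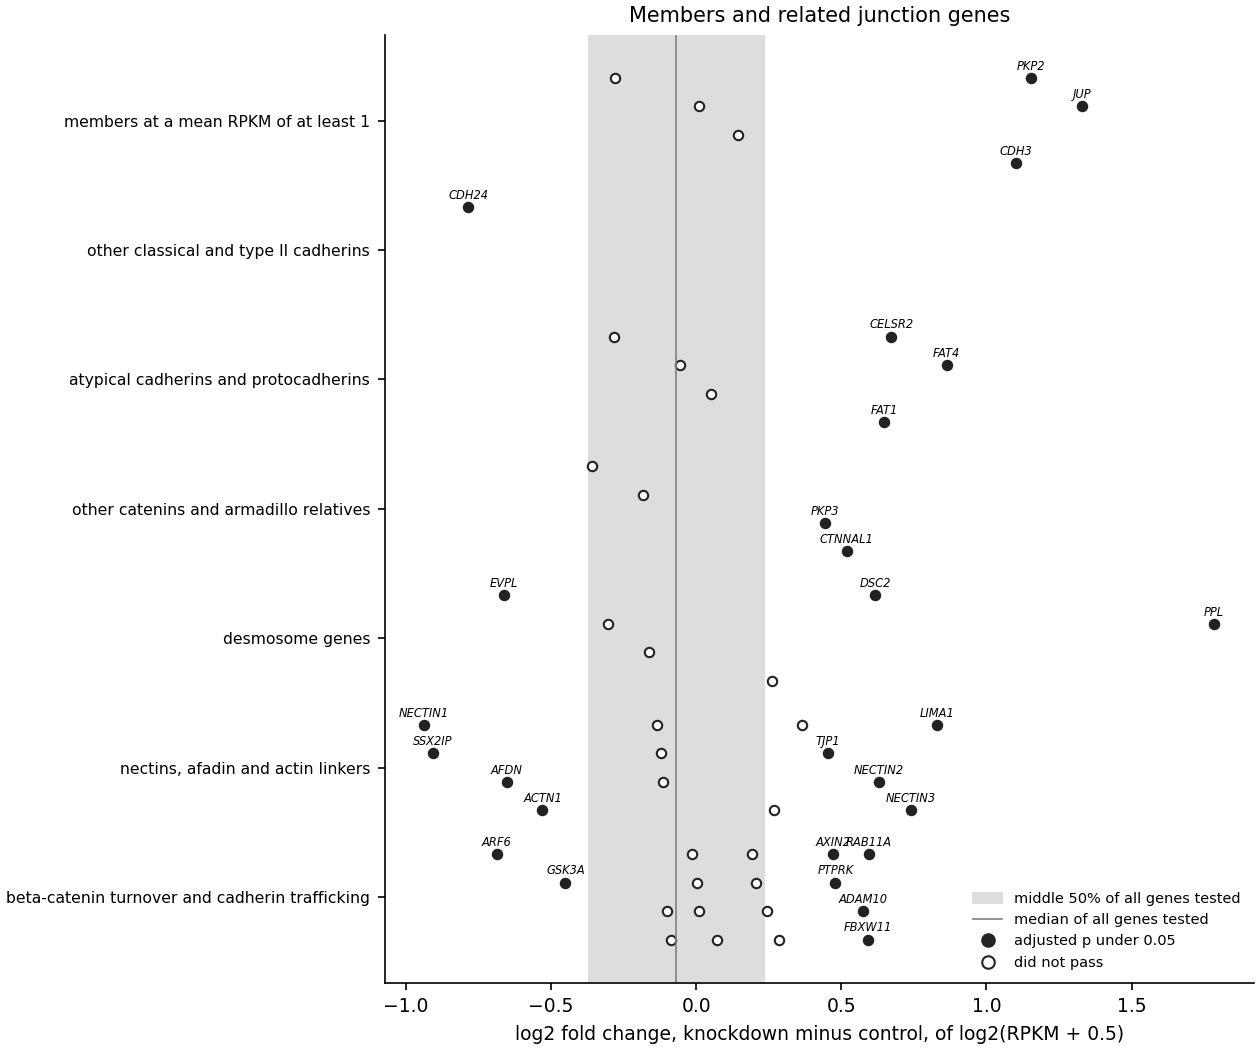
Log2 fold change (knockdown minus control) of the genes tested at a mean of at least 1 RPKM, by list, with the 6 members tested there in the top row; filled points passed and are named, open points did not. The grey band holds the middle 50% of all genes tested, from −0.37 to 0.23, and PPL, JUP, PKP2 and CDH3 lie farthest to the right of it.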

How the data were processed

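RNA was sequenced from 2 hnRNPM knockdown and 2 control libraries of LM2 cells. The authors deposited RPKM values for 36525 Ensembl genes, 1 column per library, with 0 columns left unused. The submitters' processing notes name Bowtie 0.12.7 and hg19. How reads were counted, whether by strand and over which total, is not given in the sources used. A current symbol table named 32172 IDs, GENCODE 29 named 136, and 4217 had no name; GENCODE 29 is on another build, so it gave lengths and overlaps only. Chromosomes 20, 21 and 22 were not analysed here.

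RPKM values are not counts, so log2(RPKM + 0.5) was fitted with limma 3.58.1 in R 4.3.3 (a model on group; trended empirical Bayes; Benjamini-Hochberg adjustment across the genes tested, threshold 0.05), at a mean of at least 1 RPKM, or at least 0.1 RPKM for members below 1. The empirical Bayes prior had infinite degrees of freedom at 1 RPKM and 2.49 at 0.1 RPKM. Plain ratios are ratios of mean RPKM. The limma script was tested on simulated data. Reads were recovered for 7 of the 10 genes as the smallest whole numbers matching all 4 values within a relative tolerance of 1.2e-05. After the depth ratio was taken out, libraries of a group differed by a mean chi-square per gene of 1.32 (knockdown) and 1.33 (control), where counting error gives about 1, and were kept as 2 samples. With 2 against 2 libraries no exact permutation test can pass, so none was run.

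The members and lists were chosen with earlier results of these data known. The text names the 10 members, HNRNPM, up to 4 genes per list with the smallest p among those past the threshold with groups that do not overlap, and the 3 genes nearest to CDH1 and to JUP; DSP, DSG2, PERP and the overlapping genes were named after their values were seen. Alternatives were the pseudocount, the filter, median-ratio scaling, empirical Bayes without a trend, the replicate number as a block, and leaving out each library.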

Additional observations from a re-analysis of the deposited data

How the results depend on the processing

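In the fit at a mean of at least 1 RPKM, JUP, PKP2 and CDH3 kept their direction under the alternatives run. They kept their call there without any 1 library, but in the fit at 0.1 RPKM 0 of 21044 genes passed without a library, these 3 included. PKP2 and CDH3 also did not pass without a filter (adjusted p = 0.0555 for PKP2 and 0.0544 for CDH3, with log2 fold changes of 1.152 and 1.10; JUP passed). CDH1 also did not pass there (log2 fold change 1.24, adjusted p = 0.0552). Without 1 library, log2 fold changes ranged from 1.09 to 1.39 for CDH1 and from 1.35 to 1.45 for CDH2. Both calls were lost in these fits, as described above. With median-ratio scaling CDH11 (0.40), CTNNA1 (0.0894), CTNNB1 (0.23) and CTNND1 (−0.20) passed, and CTNNB1, CTNNA1 and CTNND1 also with the replicate block and that scaling together (0.23, 0.0894 and −0.20). Over all genes, 2000 were higher and 2964 lower as reported, against 4235 and 4083 with median-ratio scaling, 262 and 255 without a filter, 1047 and 1321 at a mean of at least 5 RPKM, and from 759 to 1158 higher and from 1057 to 2007 lower without 1 library. The cause of these shifts was not tested. Among 17 named genes of the related lists, 17 kept their call with median-ratio scaling and 1 without a filter, and 7 to 9 without 1 library.

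The replicate numbers occur in both groups. Deviations of same-numbered libraries from their group means correlated at only 0.03 across 13627 genes, which are not independent replicates. A correlation leaves out any shift common to all genes, and replicate 2 had the larger median-ratio size factor in both groups. It was 0.929 and 1.03 for knockdown replicates 1 and 2, and 0.964 and 1.11 for control replicates 1 and 2. Whether same-numbered libraries belong together thus cannot be told from it. The replicate block gave 3109 higher and 4318 lower genes (3914 and 3719 together with median-ratio scaling), and CTNND1 passed with it (−0.28, adjusted p = 0.0164). It ended no call among the members as deposited, and with median-ratio scaling it ended that of CDH11 (adjusted p = 0.0933).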
